A study of Mus musculus with 2 samples.

Results

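The actin isoforms Actg2, Acta1, Acta2, Actc1, Actb and Actg1, the actin-binding proteins Capg, Fscn1 and Actn1, and the intermediate filament protein Vim were examined in endogenous CD8+ T (en-T) cells of C57BL/6 female mice aged 6 to 8 weeks. These 10 genes were chosen from the differences between the same 2 arrays that are described here, so the values below are a description and no test supports them. A probe set is the group of array probes that measures a gene. Of the 10 genes, 9 had a probe set named in the platform annotation, out of 19505 named genes in all, each with 1 probe set. The level of Actg1 was not analysed here. All mice bore intradermal B16F10 melanoma (200000 cells injected on the first day) and were given 300 mg/kg cyclophosphamide on day 3, followed on day 5 by 2000000 ex vivo-primed Thy1.1+ Pmel-1 T cells and by 10000 IU of IL-2 daily for 3 days. CTXpre/CD4post mice also received 200 µg of the anti-CD4 antibody GK1.5 on days 10, 17 and 24, and CTXpre mice did not. Host CD8+ cells lacking Thy1.1 were sorted on day 25 out of inguinal lymph nodes and spleen. Cells of 5 mice were pooled for each of the 2 arrays (n = 1 per group), so the spread between mice cannot be seen and no p-value can be given.

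Actin monomers assemble into filaments that give a T cell its shape, drive its migration and build its contact with a target cell. Actb and Actg1 encode the cytoplasmic actins of nearly all cells, whereas Actg2 and Acta2 encode the smooth muscle actins, Acta1 the skeletal muscle actin and Actc1 the cardiac one. Capg caps the fast-growing ends of filaments, Fscn1 ties filaments into straight bundles, and Actn1 cross-links filaments and connects them to adhesion sites. Vim forms vimentin filaments, a separate cytoskeletal system of mesenchymal cells and leukocytes. Actin isoforms are nearly identical in protein sequence, and a probe placed in their coding sequence might bind RNA of several isoforms.

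A regulatory sequence that several actin genes share is the CArG box, the binding site of serum response factor (SRF). RefSeq promoter windows of build GRCm38.p6, each with 250 bases before and 50 after an annotated start, were on hand for 8 of the 10 genes, and Actg2 and Actb had none. A CArG box (searched by its consensus, which reads alike on both strands) lay in the windows of Acta1, Actc1 and Actg1, compared with 1.63% of 32851 windows of that length. The 100 bases before each of these starts are shown, 5′ to 3′ on the gene's strand, with the box in capitals. These windows of a skeletal, a cardiac and a cytoplasmic actin gene share the box, and no other motif was searched.
Acta1 (chr8:123894776-123894875, minus strand): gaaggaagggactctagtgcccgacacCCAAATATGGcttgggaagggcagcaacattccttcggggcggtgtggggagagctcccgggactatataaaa
Actc1 (chr2:114052876-114052975, minus strand): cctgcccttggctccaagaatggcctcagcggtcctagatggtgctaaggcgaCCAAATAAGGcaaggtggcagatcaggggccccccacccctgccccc
Actg1 (chr11:120348496-120348595, minus strand): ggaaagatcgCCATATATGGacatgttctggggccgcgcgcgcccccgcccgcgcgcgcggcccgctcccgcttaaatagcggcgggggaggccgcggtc
The first base of the box lies 73 bases before the start in Acta1, 47 in Actc1 and 90 in Actg1. The other 5 windows, those of Acta2, Capg, Fscn1, Actn1 and Vim, held no such letters. This says nothing about more distant sites or about boxes that depart from the consensus by a base.

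Levels below are log2 values after robust multi-array averaging (RMA), and differences were taken as CTXpre/CD4post minus CTXpre throughout. A level counted as above background when it exceeded the 95th percentile of 1447 chemosensory receptor probe sets on its array, 4.34 for CTXpre/CD4post and 4.32 for CTXpre. Over those receptors the central 95% of differences ran from -0.58 to 0.66. Cd8a, a gene of the sort, had a level of 11.72 in CTXpre/CD4post and 11.47 in CTXpre cells, and Cd4, the target of the antibody, had 5.98 in CTXpre/CD4post and 7.55 in CTXpre cells.

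Among these genes, 2 were at least 2-fold higher in CTXpre/CD4post en-T cells (Actg2 and Capg) and 1 was at least 2-fold lower (Fscn1). As a background to these counts, 12940 genes passed the bound on 1 or both arrays, and 0.549% of them were higher and 0.541% lower at this threshold. At 1.5-fold, 3 members were higher, Vim being the third, and 1 (Fscn1) was lower, beside 3.08% of all genes above background higher and 3.40% lower. Since this contrast chose the genes, nothing is read from their share. The other 5 measured members, namely Acta1, Acta2, Actc1, Actb and Actn1, stayed within 1.5-fold. In all, 8 of the 9 measured members were above background on both arrays, and Acta2 was above it on neither.

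**Figure D1:**
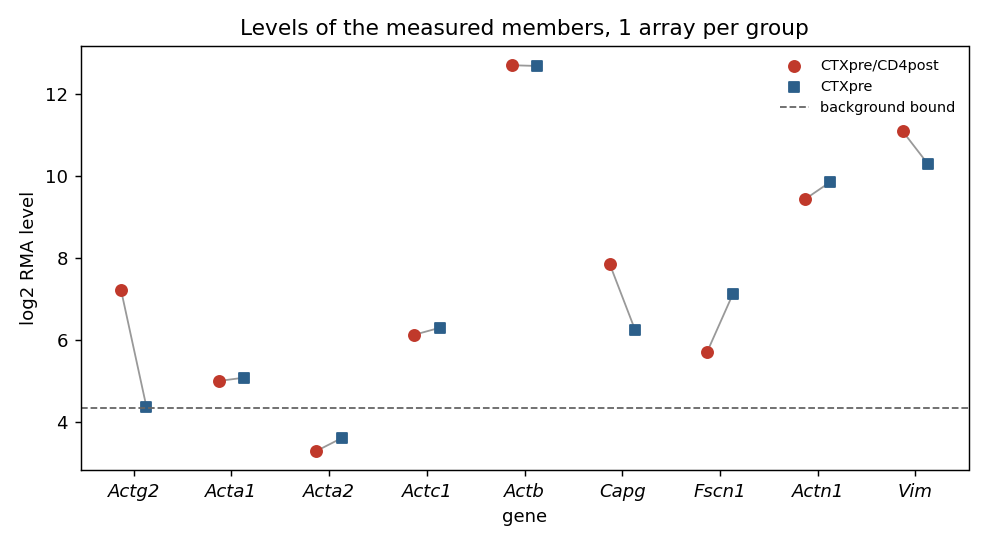
Log2 RMA level (vertical axis) of the 9 measured members in CTXpre/CD4post (circles, left of each pair) and CTXpre (squares, right of each pair) en-T cells, 1 array per group with no error bar, and the background bound of the CTXpre/CD4post array (dashed). Actg2 stands at 7.22 in CTXpre/CD4post and touches the bound at 4.36 in CTXpre, whereas Actb stands at 12.71 in CTXpre/CD4post and 12.69 in CTXpre.

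Among the actins, Actg2 stood apart from the others. Actg2, the smooth muscle actin of gut and bladder, had a level of 7.22 in CTXpre/CD4post and 4.36 in CTXpre cells, a difference of 2.86 or 7.24-fold. The CTXpre level lay only 0.05 above the bound, and 7.24-fold rests on that dim level. With the 99th percentile of the receptors as the bound, the CTXpre level was not above background, and Actg2 was at least 4.28-fold higher in CTXpre/CD4post cells. Its difference ranked 3 from the top among all genes above background. None of the 500 genes nearest to it in mean level (0 genes) had a difference as high, and the central 95% of those genes ran from -0.66 to 0.59.

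The other muscle actins differed little between the arrays, but Acta1 and Acta2 were dim, so their small differences do not show stable expression. Acta1, the skeletal muscle actin, had levels of 4.99 in CTXpre/CD4post and 5.07 in CTXpre cells, a difference of -0.08. Under the stricter bound applied to Actg2 above, 5.09 for CTXpre/CD4post and 5.12 for CTXpre, Acta1 was above background on neither array. Actc1, the cardiac actin, had 6.12 in CTXpre/CD4post and 6.29 in CTXpre cells, a difference of -0.17. Actc1 was above the stricter bound on both arrays. Acta2, the actin of vascular smooth muscle and myofibroblasts, had 3.28 in CTXpre/CD4post and 3.60 in CTXpre cells, below the bound on both arrays, so no fold is given. The median difference of the 3, Acta2 included, was -0.17, beside a median of 0.01 over all genes above background. Each of the 3 lay inside the central 95% of the 500 genes nearest in level.

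Actb, the cytoplasmic beta-actin and the only cytoplasmic isoform measured, had a level of 12.71 in CTXpre/CD4post and 12.69 in CTXpre cells, a difference of 0.02. Both levels lie close to the highest value of their array, 12.91 for CTXpre/CD4post and 12.85 for CTXpre. The Actg2 difference exceeded that of Actb by 2.84, a value that rests on an Actb level near the top of the scale. Of the 5 measured actins, 4 were within 1.5-fold, among them the dim Acta1 and Acta2. Probe sequences were not used here, so binding of Actb or Actg1 RNA to the Actg2 probes was not tested.

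**Figure D2:**
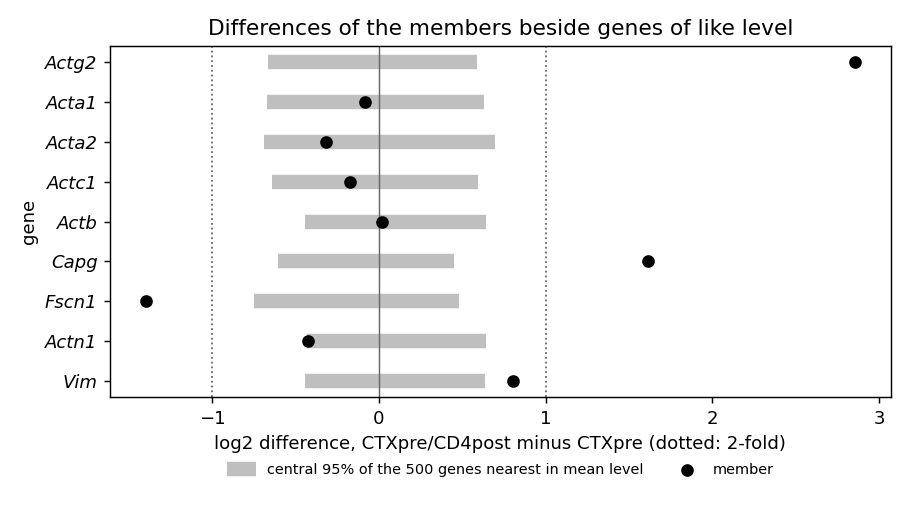
Log2 difference of each measured member, CTXpre/CD4post minus CTXpre (points), with the central 95% of the 500 genes nearest in mean level (grey bars) and 2-fold in either direction (dotted). Actg2 (2.86), Capg (1.61) and Vim (0.81) lie right of their bars and Fscn1 (-1.40) left of its bar, while Acta1, Acta2, Actc1, Actb and Actn1 lie within theirs.

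Actg2 is an actin of smooth muscle, so smooth muscle markers are given beside it. Of 12 measured, 6 were above background on 1 or both arrays, and of these 0 passed 1.5-fold upward and 1 downward. Of the 6, 2 had a difference above 0, Smtn at 0.16 and Myh11 at 0.01. Over all 12 the median difference was -0.04, and their summed linear level was 417 in CTXpre/CD4post and 450 in CTXpre cells. A large part of this sum is Ckb, a creatine kinase and the brightest of the 12. Its level was 7.20 in CTXpre/CD4post and 7.40 in CTXpre cells. Myh11, the smooth muscle myosin heavy chain, had levels of 4.92 in CTXpre/CD4post and 4.91 in CTXpre cells. Cnn1, Des, Tagln and Myocd, other defining genes of smooth muscle, were above background on neither array. Synpo2, an actin-binding protein of muscle, was at least 1.58-fold lower in CTXpre/CD4post cells. The part of smooth muscle cells in the Actg2 difference was not tested. Median differences over all measured markers were -0.11 for 12 skeletal muscle genes, 0.09 for 11 cardiac muscle genes and -0.27 for 9 fibroblast and stromal genes, of which 5 were above background on neither array. Over the 4 stromal genes above background the median was 0.07. Outside these medians, Neb, the nebulin of skeletal muscle, was 1.80-fold lower, and Ryr2, a cardiac calcium channel, was above background in CTXpre/CD4post cells only and at least 1.71-fold higher.

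Measured levels of the genes on either side of Actg2 on chromosome 6 were also close on both arrays. Dguok, a mitochondrial deoxyguanosine kinase, had 8.01 in CTXpre/CD4post and 8.09 in CTXpre cells, a difference of -0.08. Stambp, a deubiquitinating enzyme, had 7.11 in CTXpre/CD4post and 7.23 in CTXpre cells, a difference of -0.12.

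Among the actin-binding proteins, Capg was higher and Fscn1 lower in CTXpre/CD4post cells. Capg, a member of the gelsolin family that caps filaments without cutting them, had a level of 7.86 in CTXpre/CD4post and 6.24 in CTXpre cells, a difference of 1.61 or 3.06-fold. Both levels were well above the bound, by 3.52 in CTXpre/CD4post and by 1.93 in CTXpre cells. Capg ranked 17 from the top, and 0 of the 500 genes nearest in level had a difference as high. Its neighbours on chromosome 6 differed by 0.51 (Sh2d6) and -0.21 (Elmod3) by measured levels. Sh2d6 was dim, at 4.59 in CTXpre/CD4post and 4.07 in CTXpre cells, and was above background in CTXpre/CD4post cells only.

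Fscn1, the bundling protein that mature dendritic cells use to form their processes, had a level of 5.71 in CTXpre/CD4post and 7.11 in CTXpre cells, a difference of -1.40 or 2.63-fold lower. It ranked 14 from the bottom, and 1 of the 500 genes nearest in level had a difference as low. On chromosome 5 Fscn1 lies next to Actb, whose difference was 0.02, with Rnf216 on its other side at -0.02.

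Markers of dendritic cells were lower on the same array as Fscn1. All 13 measured dendritic cell markers were above background on both arrays and had a difference below 0. Of the 13, 9 passed 1.5-fold downward, beside 3.40% of all genes above background. The median difference of the 13 was -0.69. Their summed linear level was 4774 in CTXpre/CD4post and 8021 in CTXpre cells, single levels ranging from 5.20 to 10.76 in CTXpre/CD4post and from 5.64 to 11.51 in CTXpre. The brightest were the MHC class II genes H2-Ab1 and H2-Aa, which B cells also express and which hold much of this sum. Both, like H2-Eb1, are among the 9 markers past 1.5-fold. Siglech, of plasmacytoid dendritic cells, differed by -1.32, the MHC class II chain H2-Eb1 by -0.93 and the growth factor receptor Flt3 by -0.92. The markers of mature dendritic cells, the state in which Fscn1 is best known, included few past 1.5-fold. Of 9 above background, 6 had a difference below 0 and 3 above 0. Only Ccl22, a chemokine, was at least 1.5-fold lower (-0.64). The median was -0.23 over the 9 and -0.15 over all 10 measured. The summed linear level of these 10 was 1758 in CTXpre/CD4post and 2077 in CTXpre cells. Much of this sum is Ccr7, which naive and central memory CD8+ T cells also express. Its level was 9.96 in CTXpre/CD4post and 10.19 in CTXpre cells. Tbc1d4 differed by -0.51 and Socs2 by -0.37. Cd83 (-0.33), Cd40 (-0.07), Cd86 (0.07), Cd80 (0.0009) and Relb (0.05) were named after their values were seen. The part of these cells in the Fscn1 difference was not tested, and in RNA of pooled cells fewer cells of a type cannot be told apart from less RNA per cell.

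Capg is also expressed by macrophages. Of 9 macrophage and monocyte markers above background, 0 passed 1.5-fold upward and 3 downward. Over all genes above background, 3.08% were higher and 3.40% lower at this threshold. The macrophage and monocyte median was -0.02 over these 9 markers and -0.23 over all 12 measured. The summed linear level of these 12 was 4053 in CTXpre/CD4post and 3887 in CTXpre cells, a sum that includes Ly6c2, which memory CD8+ T cells also express, at a level of 11.76 in CTXpre/CD4post and 11.56 in CTXpre cells. Of the 9, 4 had a difference above 0 (Ccr2 at 0.52, Ly6c2 at 0.20, Adgre1 at 0.15 and Cd14 at 0.01) and 5 below 0, with Mpeg1 at -1.12, Csf1r at -0.67 and Lyz2 at -0.65. Ccr2, Ly6c2, Adgre1 and Cd14 were named after their values were seen. Of 9 B cell markers, all above background, 8 had a difference below 0 and 2 passed 1.5-fold downward (Blnk and Ebf1), with a median of -0.24. The part of these cells in the Capg difference was not tested.

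**Figure D3:**
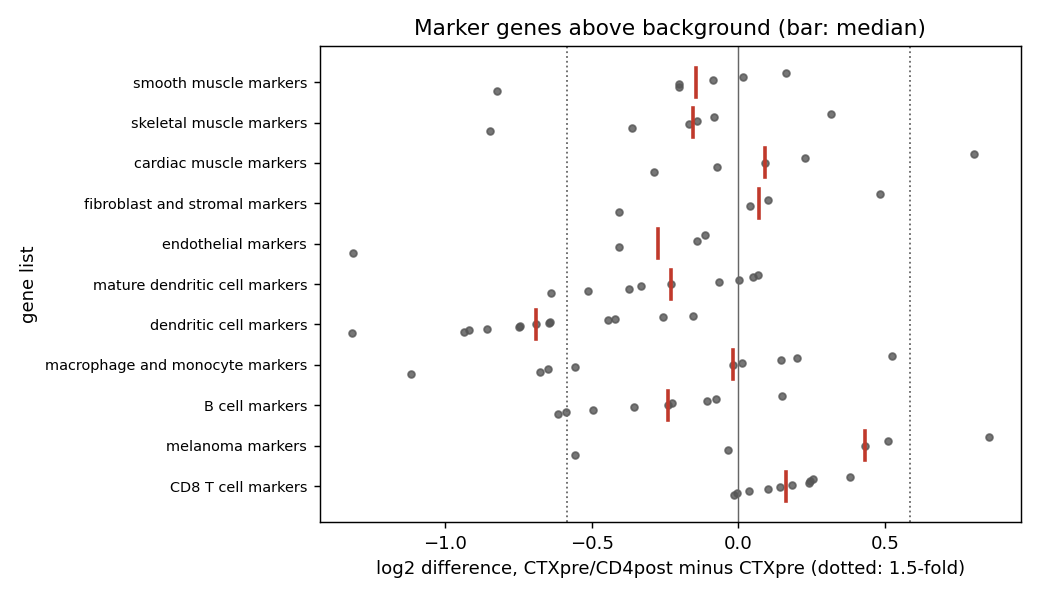
Log2 difference, CTXpre/CD4post minus CTXpre, of each marker gene above background on at least 1 array (points) in the 11 marker lists, with the median of those points (red bar) and 1.5-fold in either direction (dotted). The dendritic cell markers lie furthest to the left as a list, with a median of -0.69, and no smooth muscle marker lies past 1.5-fold on the right.

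Actn1, the non-muscle alpha-actinin 1, had a level of 9.43 in CTXpre/CD4post and 9.86 in CTXpre cells, a difference of -0.42. Of the 500 genes nearest in level, 13 had a difference as low, and the central 95% began at -0.43, so Actn1 lay just inside it. Actn4, the other non-muscle alpha-actinin, named after its values were seen, went the other way, with 9.53 in CTXpre/CD4post and 9.14 in CTXpre cells. Neither alpha-actinin reached 1.5-fold.

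Vim had a level of 11.09 in CTXpre/CD4post and 10.29 in CTXpre cells, a difference of 0.81 or 1.75-fold. It ranked 170 from the top, and 3 of the 500 genes nearest in level had a difference as high. The neighbours of Vim on chromosome 2 differed by -0.30 (Trdmt1) and -0.35 (St8sia6) by measured levels. St8sia6 was dim, at 3.97 in CTXpre/CD4post and 4.32 in CTXpre cells, and was above background in CTXpre cells only. Vimentin is abundant in fibroblasts and endothelial cells as well as in T cells. Of 9 fibroblast and stromal markers, 4 were above background, none past 1.5-fold. Of the 4, 3 had a difference above 0, with Col1a2, a collagen chain, at 5.39 in CTXpre/CD4post and 4.91 in CTXpre cells (0.48), and Fn1 was at -0.41. Dcn and Lum were below background on both arrays. Of the 4 endothelial markers above background, all had a difference below 0, among them Kdr, which was at least 1.27-fold lower, and Pecam1, at -0.41. The 10 measured CD8 T cell markers lay between -0.01 and 0.38, with a median of 0.16. The part of other cell types in the Vim difference was not tested.

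The members were set beside 11 lists of other cytoskeleton genes. Of 158 listed genes above background that are not members, 1 passed 1.5-fold upward and 5 downward, 0.633% and 3.16%, beside 3.08% and 3.40% over all genes above background. Their median difference was 0.03, compared with 0.01 over all genes. At 2-fold, 0 were higher and 1, Palld, was lower by its measured levels. Of 8 actin-related proteins above background, all were within 1.5-fold, with a median of 0.09.

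The machinery that builds branched and straight filaments differed little. All 7 measured subunits of the Arp2/3 complex, which starts new branches, were within 1.5-fold, with a median of 0.07, Arpc4 at 0.32 and Arpc1b at 0.23. The 18 Arp2/3 activators above background were within 1.5-fold too, and the WAVE complex gene Nckap1 reached 0.53. None of 11 formins, which build straight filaments, passed 1.5-fold, between Fmnl2 (-0.51) and Diaph3 (0.46). Of 24 genes of monomer binding and turnover, 23 were within 1.5-fold, and the monomer-binding Twf1, at -0.66, was the exception.

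Among 17 capping and severing proteins, Capg was the 1 gene at least 1.5-fold higher. Carmil1, which uncaps filaments, was 1.55-fold lower, and Avil (-0.56), a relative of Capg, and Eps8 (-0.51), a further capping protein, did not reach 1.5-fold. The median of the list was -0.03. Among 25 bundling and cross-linking proteins, 2 were at least 1.5-fold lower, Fscn1 and the calponin Cnn3 (-0.61). Flna, the filamin of leukocytes, differed by 0.48. Fscn2, the retinal paralog of Fscn1, was above background in CTXpre/CD4post cells only and was at least 1.03-fold higher.

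Linkers of filaments to membranes and adhesions held 2 genes past 1.5-fold downward by measured levels. Lima1, which stabilizes filaments, had levels of 5.51 in CTXpre/CD4post and 6.22 in CTXpre cells, and Palld, a scaffold of stress fibres, was above background in CTXpre cells only and at least 1.18-fold lower. The median of this list was 0.06. The 17 tropomyosins and myosins were all within 1.5-fold, with Myo1c at -0.49, Myo1g at 0.45 and Tpm4 at 0.44.

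Of 11 intermediate filament and lamin genes above background, Vim and Gfap passed 1.5-fold upward by measured levels. Gfap, the glial filament protein, was above background in CTXpre/CD4post cells only and at least 1.42-fold higher. SRF and its cofactors act on actin genes through CArG boxes. All 7 genes of this axis above background were within 1.5-fold, with Elk3 at 0.42, Fhl2 at 0.29 and Srf itself at 8.06 in CTXpre/CD4post and 7.78 in CTXpre cells. Acta1 and Actc1, both with such a box, differed by -0.08 and -0.17.

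**Figure D4:**
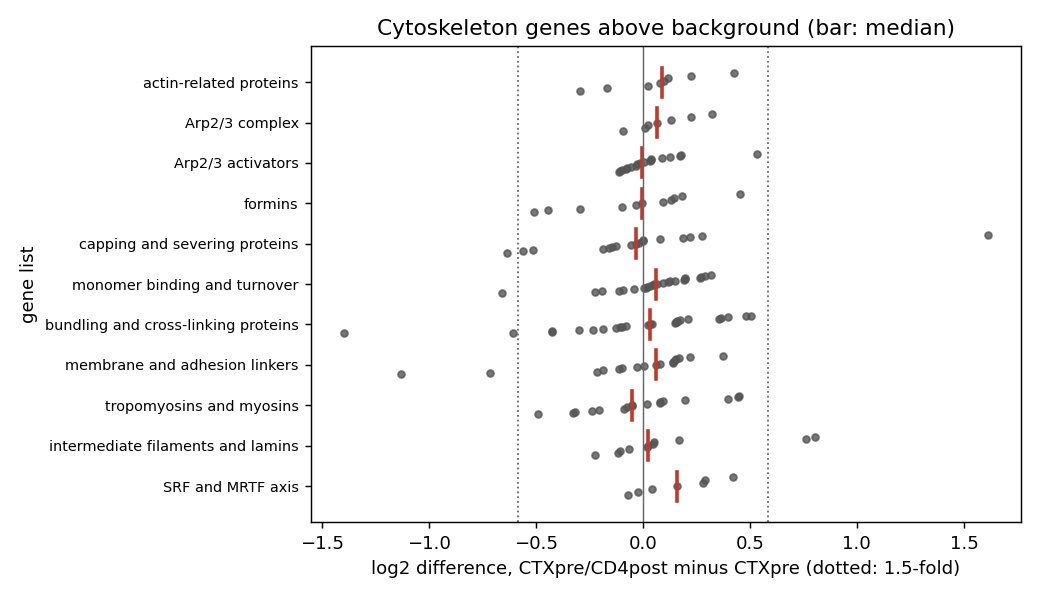
Log2 difference, CTXpre/CD4post minus CTXpre, of each gene above background on at least 1 array (points) in the 11 cytoskeleton lists, with the median of those points (red bar) and 1.5-fold in either direction (dotted). The medians lie between -0.05 and 0.16, and Capg (1.61) and Fscn1 (-1.40) are the outermost points.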

How the data were processed

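Clariom S mouse arrays were processed by the authors in Affymetrix Power Tools, whose RMA method (robust multi-array averaging) gave the deposited log2 levels after background correction, quantile normalization and summary over probes. Tool versions and genome build were not given in the sources used here. Quantile normalization hides any global shift in RNA amount. Groups came from the treatment labels, with 1 array each, and 0 columns were left unused. Of 22206 probe sets, 19572 had 1 gene symbol and 2634 none. The probe set with the highest mean stood for each of 55 genes with several.

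With 1 array per group no test was run, and the number of arrays limits the precision. Genes were counted at 2-fold (members) and 1.5-fold (lists) by measured levels. For a gene above background on 1 array only, the dim level was set at the higher of the bound and its own value ("at least N-fold"). Lists are described by counts and medians. The members and lists were chosen with earlier results of these data known. All 10 members were to be named, with up to 4 genes of each cytoskeleton list and up to 3 of each marker list, those with the largest difference above background, and genes of the sort. Genes outside this rule are the defining markers and neighbours given beside a member, the melanoma markers, which are all given, and those stated as named after their values were seen. Python 3.11.15, pandas 2.3.3 and statsmodels 0.14.6 were used. Alternatives were centring, repeated quantile normalization, a lowess trend (fraction 0.3) removed, 32 added to linear values, levels set at the bound, the 99th percentile as the bound, means of probe sets, other fold thresholds and no filter.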

Additional observations from a re-analysis of the deposited data

How the results depend on the processing

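Actg2, Capg and Fscn1 kept their direction and stayed past 2-fold under each alternative of scaling, bound and added constant. Over these, the difference lay between 1.78 and 2.86 for Actg2, 1.29 and 1.62 for Capg, 0.78 and 0.81 for Vim, and -1.41 and -1.01 for Fscn1. At a 3-fold threshold 0 members were lower. With 32 added to the linear values, which shrinks differences of dim genes, the Actg2 difference exceeded that of Actb by 1.76, and with levels set at the 99th percentile bound, an alternative chosen after seeing the data, by 2.08. The count of other cytoskeleton genes at least 1.5-fold higher was 0 with 32 added, with levels set at the bound, with the 99th percentile as the bound and at 2-fold. The count lower was 0 with 32 added and 1 at 2-fold. Acta2, below background on both arrays, had a difference of 0.02 with levels set at the bound, which is only the difference between the bounds themselves. Of 290 values under alternatives, 277 moved by less than the spread of the chemosensory receptors (a robust SD of 0.29) or, for counts, by at most 1.5-fold, or stayed past their fold threshold. Some of these could not move. Each member has 1 probe set, so means of probe sets leave its difference unchanged. The 99th percentile as the bound changes only which genes are counted, not the difference of a member. Over markers above background, the macrophage median of -0.02 was -0.56 with the 99th percentile as the bound, the stromal median of 0.07 was -0.27 without a filter, and the melanoma median of 0.43 was 0.08 with levels set at the bound. No paired analysis was possible because each group has 1 array.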

Other observations

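Lists of other cytoskeleton genes were added after the results above were known. Of 8 measured genes of cytokinesis, a list that holds microtubule kinesins as well as regulators of actin, 7 exceeded the bound. Of these, 4 passed 1.5-fold upward and 0 downward, beside 3.08% upward and 3.40% downward over all genes above background, and the median difference was 0.68 compared with 0.01. Ect2, the exchange factor that starts the contractile ring, had levels of 6.87 in CTXpre/CD4post and 5.81 in CTXpre cells, and the kinesin Kif20a had 7.16 in CTXpre/CD4post and 6.22 in CTXpre cells. Prc1 differed by 0.76 and the kinase Aurkb by 0.68. Cit (0.49), Kif23 (0.46) and Racgap1 (0.30) did not reach 1.5-fold, and Anln, an actin-binding protein of the ring, was above background on neither array.

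All 14 tubulins were within 1.5-fold, with a median of 0.05, between Tubb2b (-0.39) and Tubb4b (0.46). Among 8 septins above background, Septin3 was at least 2.69-fold lower and the rest were within 1.5-fold, with Septin11 at 0.52.

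Of 7 measured melanoma markers, Pmel, the gene whose product the transferred Pmel-1 cells recognize, had a level of 5.27 in CTXpre/CD4post and 4.75 in CTXpre cells. Tyr and Tyrp1 were above background on neither array. Dct and Sox10, above background in CTXpre/CD4post cells only, were each at least 1.06-fold higher. Mitf was at least 1.31-fold lower, and Mlana differed by -0.04.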
